A study of Mus musculus with 6 samples.

Results

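Chromatin association at the CCN family and at 5 further genes known as targets of YAP and TAZ was described from CUT&Tag of primary mouse cardiac fibroblasts. The members were Ccn1, Ccn2, Ccn3, Ccn4, Ccn5, Ankrd1, Axl, Crim1, F3 and Nt5e, and every region that the deposited tables assign to 1 of these 10 genes was taken. The 4 tables held 96 such regions among 456310. By table, there were 40 of 170890 regions for the T set, TGF-b over NC, 11 of 52723 for the S set, TGF-b over NC, 32 of 180118 for the T set, siRNA over TGF-b, and 13 of 52579 for the S set, siRNA over TGF-b. All 10 genes had a region in the T set, and 6 had a region in the S set. Ccn1, Ccn2, Axl and F3 had none in the S set.

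CUT&Tag tethers a transposase to an antibody on chromatin, so reads collect where the antibody's target sits. The libraries carry the letter T or S and form 2 sets of 3. T is read here as TAZ and S as SRF, the factors that the study profiled, which is an inference, since the labels name no antibody. In each set, 1 library came from cells given NC (not spelled out in the labels), 1 from cells given TGF-b, and 1 from cells given TGF-b with an siRNA. The labels call that siRNA SiTAZ in the T set and SiSRF in the S set, while the study's text speaks of siRNA against Piezo2 with a scrambled control. The series' design text describes deletion of Tet3 with a Cre virus before TGF-b, and no sample label names a knockout. Genotype, age and sex of the mice were not given in the sources used here, and the labels list total RNA as the molecule although the assay reads DNA. The study asked whether the gain of chromatin association with TGF-b is lost with the siRNA. With 1 library per treatment in the tables used here, there was no test of a treatment, and every interval below covers counting error only.

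TAZ and its paralogue YAP are transcriptional coactivators that the Hippo kinases keep out of the nucleus. On stiff matrix, under tension or with growth signals they enter the nucleus and reach DNA through TEAD factors. SRF binds the CArG box and, with its MRTF cofactors, reads the state of the actin cytoskeleton. CCN proteins are secreted matricellular proteins that shape adhesion, growth factor signalling and scar formation, and Ccn1, Ccn2 and Ankrd1 are the genes most often used to read YAP and TAZ activity.

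Depth was low at most member regions. Reads are taken as counted in a window of 2 kb around each region. That width was inferred from the deposited densities, and the study's methods do not state it. Shares of windows given below rest on it. T set member regions held 0 to 150 reads per library, S set member regions 0 to 28. A library with 3 reads or fewer was present at 18 of 40 (45%) and 16 of 32 (50%) member regions of the T set tables, and at 3 of 11 (27.3%) and 3 of 13 (23.1%) of the S set tables. The shares over all regions were 49.3%, 57.9%, 27.5% and 26.8% in the same order. All member regions of the T set within 1 kb of a transcription start site (TSS) lay above that floor. A promoter region of a fibroblast marker was listed for 3 of 6 markers in either T set table (Col1a1, Col1a2 and Dcn in the first, Col1a1, Dcn and Pdgfra in the second), for 2 of 6 and 0 of 6 in the S set tables. Cardiomyocyte markers numbered 2 and 3 of 4 in the T set tables and 1 and 2 of 4 in the S set tables, leukocyte markers 2 and 1 of 3 in the T set tables and 0 in the S set, and endothelial markers 1 of 3 in the first T set table and 0 elsewhere. Chromatin association does not measure expression, so these counts do not identify a cell type.

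The promoters of 6 member genes (Ankrd1, Axl, Ccn1, Crim1, F3 and Nt5e) were matched by symbol in RefSeq on GRCm38.p6 (Ccn2, Ccn3, Ccn4 and Ccn5 were not), a build that differs from the GRCm39 coordinates of the regions. They were searched on both strands for the TEAD core GGAATG, for the CArG box and for the AP-1 site TGANTCA, in the 250 bases before the start. The core was found in 4 of them, Ankrd1, Axl, Ccn1 and Crim1, while 12.6% of 32851 RefSeq promoters held it in a window of that length. The 4 sequences below show where these letters lie in the genes whose promoter or intron regions carried many reads in the T set, with every match in capitals. Ankrd1 (chr19:36119845-36120094, minus strand) has GGAATG at positions -210 to -205 and again at -123 to -118, counted from -1 at the last base before the start. Ccn1 (chr3:145649986-145650235, minus strand) has the reverse complement CATTCC at positions -103 to -98. Axl (chr7:25788734-25788983, minus strand) has GGAATG at positions -233 to -228. F3 (chr3:121723287-121723536, plus strand) has no core but has the AP-1 letters TGAATCA at positions -146 to -140 and TGAGTCA at -135 to -129.
Ankrd1: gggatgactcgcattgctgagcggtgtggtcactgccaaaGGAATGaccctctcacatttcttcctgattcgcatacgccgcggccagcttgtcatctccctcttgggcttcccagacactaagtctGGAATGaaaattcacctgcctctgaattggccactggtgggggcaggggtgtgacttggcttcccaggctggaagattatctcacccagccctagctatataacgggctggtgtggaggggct
Ccn1: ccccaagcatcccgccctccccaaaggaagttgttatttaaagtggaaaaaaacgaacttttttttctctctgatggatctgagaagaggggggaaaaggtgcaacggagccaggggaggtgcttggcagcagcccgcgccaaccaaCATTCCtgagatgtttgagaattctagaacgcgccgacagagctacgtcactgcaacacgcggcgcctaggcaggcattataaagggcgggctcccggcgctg
Axl: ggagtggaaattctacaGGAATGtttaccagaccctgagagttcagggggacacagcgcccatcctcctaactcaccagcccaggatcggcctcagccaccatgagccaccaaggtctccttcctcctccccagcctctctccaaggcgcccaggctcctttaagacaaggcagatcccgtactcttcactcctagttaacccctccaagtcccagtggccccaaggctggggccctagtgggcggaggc
F3: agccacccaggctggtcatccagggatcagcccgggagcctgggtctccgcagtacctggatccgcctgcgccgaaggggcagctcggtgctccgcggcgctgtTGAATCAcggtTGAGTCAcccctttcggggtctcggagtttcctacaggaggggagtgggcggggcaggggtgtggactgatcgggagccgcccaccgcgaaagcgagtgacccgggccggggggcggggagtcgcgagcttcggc

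The AP-1 letters were found in 6.75% of all promoters and in F3 alone among the 6. The CArG box, present in 1.47% of all promoters, was in none of them. No letters of these 3 kinds were in the Nt5e window. A match describes these bases and is no evidence of binding.

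In the T set, TGF-b and NC were within 2-fold of each other at most regions near member start sites, and the regions past 2-fold lay mostly inside the introns of Crim1 and Nt5e. Of 40 member regions, 4 were at least 2-fold higher with TGF-b than with NC and 15 at least 2-fold lower, where 17.3% and 42.1% of all regions were. The median log2 ratio was -0.73 (95% rank interval -1.07 to -0.26) over member regions and -0.65 over all regions. Within 1 kb of a TSS, 1 of 11 member regions was at least 2-fold higher and 1 at least 2-fold lower, against 21.4% and 20.9% of all such regions. Their median was -0.28, and that of all regions near a TSS was 0.09. Beyond 1 kb, 3 of 29 were higher and 14 lower, against 16.5% and 43.9%, with medians of -0.98 for members and -0.77 for all. The members' shares thus stood near those of all regions away from the TSS and below them near the TSS, there on 11 regions of 6 genes. Crim1 held 18 and Nt5e 6 of the 40 regions, and without Crim1 the counts were 1 higher and 8 lower. Centred on the median of all regions, 5 were higher and 9 lower, and the median was -0.07. Of the 15 lower regions, 5 had a counting interval that included 0. Raising every count under 3 reads to 3 left 8 lower regions and a median of -0.44.

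With siRNA added to TGF-b, T set regions at member promoters were, on the deposited scale, within 2-fold of TGF-b alone except at Ccn2, while intron regions lay past 2-fold in both directions. At least 2-fold higher with siRNA were 12 of 32 member regions and at least 2-fold lower were 6, where 49.7% and 16.2% of all regions were. The median log2 ratio was 0.61 (-0.54 to 1.68) for members and 0.97 for all regions. Near a TSS, 0 of 7 member regions were higher and 1 was lower, against 25.1% and 22.2%, with medians of -0.31 and 0.03. Centring put the Ccn2 exon 1 region (-1.56) and the near-TSS regions of Ccn3 (-1.22 and -1.28) and Nt5e (-1.51) past 2-fold lower as well. It takes off the all-region median of 0.97, while all regions near a TSS had a median of 0.03. Regions near a TSS thus tend to lie below 0 once centred, and their centred share past 2-fold was not computed. Farther away, 12 of 25 were higher and 5 lower, against 51.1% and 15.6%, with medians of 0.95 and 1.04. Centred on the median of all regions, 7 were higher and 13 lower with a median of -0.36, and without the authors' rescaling 10 were higher and 10 lower with a median of 0.16, so the direction over the members depended on the scaling. Without Crim1, 4 regions were higher and 2 lower, with a median of -0.06. The TGF-b library enters both comparisons, so a high or low count there moves the first ratio one way and the second the other way. With reads of 3 or fewer in either library set to 3, the median was 0.45.

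**Figure D1:**
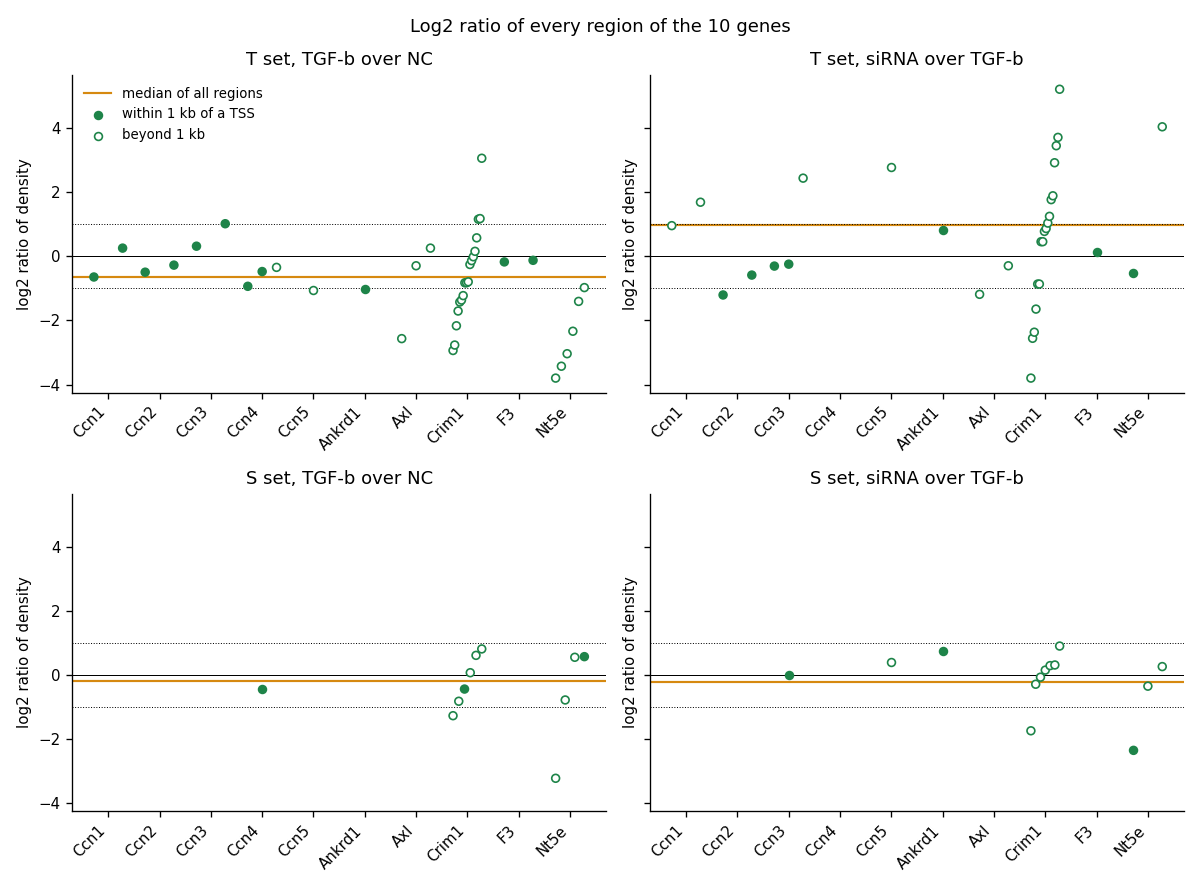
Log2 ratio of normalized read density (vertical axis) for every member region by gene (horizontal axis) in the 4 tables, with filled points within 1 kb of a TSS, open points beyond it, dotted lines at 2-fold and a coloured line at the median of all regions. Crim1 points lie on both sides of 0 in the T set, from -2.94 to 3.05 with TGF-b and from -3.80 to 5.20 with siRNA. The regions at these ends had 0 reads in a library. With those counts set to 3, their values were -0.94, 1.05, -1.80 and 3.20 in the same order. A gene with no point has no region in that table.

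Ccn2, formerly Ctgf, encodes a matricellular cofactor of TGF-b and a marker of fibrosis, and it carried the deepest member regions. Its promoter region at chr10:24471110-24471430 (GRCm39, 70 bases before the TSS) had 109 reads with NC, 96 with TGF-b and 29 with siRNA in the T set. The normalized densities were 56.8 with NC and 46.9 with TGF-b, for a log2 ratio of -0.28 (-0.67 to 0.12). In the other table it was 41.0 in TGF-b and 17.7 with siRNA, for a log2 ratio of -1.21 (-1.84 to -0.65), and this was the one T set member region near a TSS at least 2-fold lower with siRNA on the deposited scale. The library with siRNA was thus the lowest of the 3 here. The first ratio became 0.38 when centred on the median of all regions, whereas the second kept its sign, at -2.18 centred and -1.69 without the authors' rescaling. The exon 1 region at chr10:24471483-24471791, 13 bases from the nearest TSS, held 150, 115 and 54 reads, in the same order of libraries. Its window shares 1633 bases (81.7%) with that of the promoter region, so both count many of the same reads. Its TGF-b over NC ratio was -0.50 (-0.85 to -0.15) and turned to 0.15 when centred. Its siRNA over TGF-b ratio was -0.59 (-1.07 to -0.14), or -1.56 centred and -1.08 without the rescaling, past 2-fold in both cases.

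Ccn1, formerly Cyr61, encodes an immediate early matricellular protein that binds integrins. In the T set its promoter region at chr3:145355784-145355879, 95 bases before the TSS, had 39 reads in NC and 47 in TGF-b, and densities of 20.1 and 23.9. The log2 ratio was 0.25 (-0.36 to 0.86), or 0.90 when centred on the median of all regions. An exon 2 region at chr3:145355109-145355182 had 40 and 25 reads, with a ratio of -0.65 (-1.38 to 0.05) that was 0.01 when centred. The windows of these regions share 65.7%. On the deposited scale both intervals included 0. Centring takes off the all-region median of -0.65, while all regions near a TSS had a median of 0.09. A centred value above 0, as at this promoter region, is thus usual near a TSS. The table of siRNA over TGF-b lists other Ccn1 regions, so no region follows the promoter through the 3 libraries. One lay downstream at chr3:145350373-145350446 with 27 reads in TGF-b and 38 with siRNA, a ratio of 0.95 (0.27 to 1.67) that was -0.02 when centred. The other, in intron 3 at chr3:145354194-145354258, held 5 and 13 reads, densities of 2.56 and 8.20 and a ratio of 1.68 (0.41 to 3.26) that was 0.71 when centred, under 2-fold.

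Ccn3, formerly Nov, encodes a member of the family that can oppose Ccn2. Its promoter region at chr15:54608829-54608918 had 11 reads in NC and 22 in TGF-b in the T set, and densities of 5.85 and 11.8. At 1.01 (0.05 to 2.09), its log2 ratio was the only one near a TSS at or above 2-fold with TGF-b among members, although the region was called only in NC. Without the authors' rescaling it was 0.94, under 2-fold, and centred it was 1.66. The 5′ UTR region 110 bases after the TSS, whose window shares 83.2% with it, held 19, 23 and 13 reads in NC, TGF-b and siRNA, with ratios of 0.31 (-0.54 to 1.19) and -0.31 (-1.32 to 0.61). These values were 0.96 and -1.28 when centred. In the S set, a Ccn3 promoter region at chr15:54608822-54609008 held 16 reads in TGF-b and 15 with siRNA, and a ratio of -0.01 (-1.02 to 0.98). An intron 3 region of the T set rested on 0 and 3 reads, and no fold is given for it.

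Ccn4 and Ccn5, formerly Wisp1 and Wisp2, encode proteins first found downstream of Wnt signalling, and Ccn5 lacks the C-terminal module of its relatives. At the Ccn4 promoter, chr15:66762726-66762798, the T set had 25 reads in NC and 12 in TGF-b, densities of 12.7 and 6.64 and a log2 ratio of -0.94 (-1.97 to -0.02), which was -0.29 when centred. An overlapping S set region at chr15:66762776-66762867 had 8 and 9 reads and a ratio of -0.43 (-1.74 to 0.92), which was 0.15 without the rescaling. The remaining Ccn4 regions, in exon 1 and intron 1, had ratios of -0.48 and -0.35 with intervals that included 0 and turned to 0.17 and 0.30 when centred. The window of the exon 1 region shares 65.5% with that of the T set promoter region. No Ccn4 region was listed with siRNA in either set. Ccn5 had intron 2 regions only. One at chr2:163665322-163665405 had 17 reads with NC and 7 with TGF-b, a ratio of -1.07 (-2.41 to 0.05) that was -0.42 when centred, and one at chr2:163667010-163667092 had 1 read in TGF-b and 9 with siRNA, a ratio of 2.77 (1.01 to 6.23) that was 1.80 when centred and 1.77 once the single TGF-b read was raised to 3. An S set region of that intron had 14 reads in TGF-b and 18 with siRNA and a ratio of 0.41 (-0.55 to 1.42).

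Ankrd1 encodes a nuclear and sarcomeric ankyrin repeat protein that is induced by stretch and by YAP and TAZ. Its promoter region at chr19:36097169-36097564, 56 bases before the TSS with the RefSeq promoter printed above, had 52 reads with NC, 25 with TGF-b and 32 with siRNA in the T set. Density was 26.5 with NC and 13.0 with TGF-b, giving a log2 ratio of -1.03 (-1.74 to -0.38), the only member ratio near a TSS at least 2-fold lower in that comparison on the deposited scale. Centred, it was -0.38 and no longer past 2-fold. In the separately rescaled second table it was 11 with TGF-b and 19.5 with siRNA, a ratio of 0.82 (0.08 to 1.58) that became -0.15 when centred. The S set listed an overlapping region at chr19:36097270-36097481 with 17 reads in TGF-b and 28 with siRNA, a ratio of 0.74 (-0.08 to 1.63). NC thus had the most reads of the 3 T set libraries at Ankrd1, while the size of the NC difference and the order of TGF-b and siRNA depended on the scaling. The T set region was called only in NC in the first comparison and only in siRNA in the second, which selects for those libraries over TGF-b.

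F3 encodes tissue factor, the starter of the extrinsic clotting cascade. Its T set region 23 bases before the TSS, chr3:121517091-121517236, had 30 reads with NC, 27 with TGF-b and 21 with siRNA. The log2 ratios were -0.13 (-0.87 to 0.61), 0.52 when centred, and 0.12 (-0.70 to 0.92), -0.85 when centred and -0.35 without the rescaling. A neighbouring region had 30 reads in NC and 26 in TGF-b and shares 89% of its window with the former. On the deposited scale both intervals of the first region included 0 and lay within 2-fold. Once centred, the ratios of 0.52 and -0.85 stayed within 2-fold, but neither interval did.

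**Figure D2:**
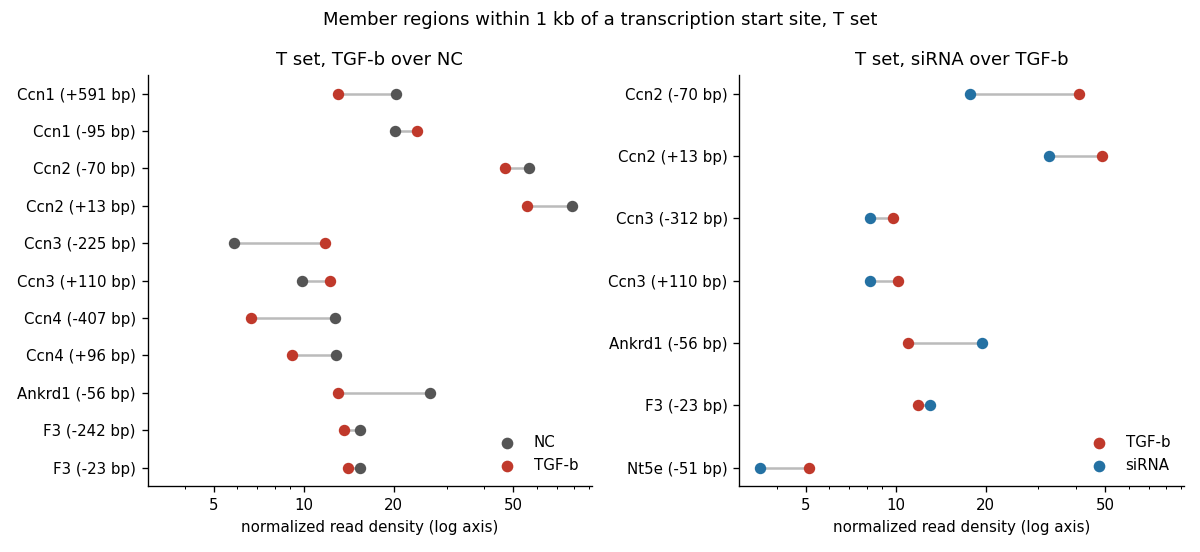
Normalized read density on a log axis at the member regions of the T set within 1 kb of a TSS, labelled with their distance to it, in the table of TGF-b over NC at left and of siRNA over TGF-b at right. The 2 points of a line are the 2 libraries of a table, and the tables are rescaled separately. Ccn2 has the highest densities at either side, and its promoter region has 41.0 with TGF-b and 17.7 with siRNA.

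Axl encodes a receptor tyrosine kinase for Gas6. Its deepest T set region, in intron 4 at chr7:25483290-25483511, had 43 reads with NC, 35 with TGF-b and 20 with siRNA, and log2 ratios of -0.30 (-0.94 to 0.33) and -0.30 (-1.12 to 0.45). Centring made these 0.35 and -1.27. Another region of intron 4 at chr7:25480973-25481048 had 40 reads in TGF-b and 12 with siRNA, densities of 17.4 and 7.65 and a ratio of -1.19 (-2.18 to -0.35), although it was called only in the siRNA library. A region of intron 10 had 6 reads in NC and 0 in TGF-b. Against a floor of 3 reads it was at least 1.48-fold lower with TGF-b on the deposited scale. That log2 ratio of -0.57 was no lower than the all-region median of -0.65. The region nearest the TSS, at position -1329 from it, held 9 and 10 reads and a ratio of 0.25 (-0.99 to 1.52). On the deposited scale, both intervals of the deeper intron 4 region included 0, and the other intron 4 region was lower with siRNA.

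Nt5e encodes CD73, the ectoenzyme that makes adenosine from AMP, and all 6 of its T set regions in the table of TGF-b over NC had a higher density with NC. They were intronic and called only in NC, which selects regions dense in NC, and 5 of them were at least 2-fold lower with TGF-b, where 59.2% of all T set regions called only in NC were. At chr9:88239513-88239657 in intron 3, reads numbered 26 in NC and 2 in TGF-b, densities were 12.9 and 1.57, and the log2 ratio was -3.04 (-5.50 to -1.65). The neighbouring region at chr9:88240040-88240113 had 23 and 1 reads and a ratio of -3.43 (-6.92 to -1.83), with 75.5% of the window shared. In intron 1, chr9:88234047-88234142 had 15 reads in NC and 0 in TGF-b, at least 3.48-fold lower. The 3 remaining intron 1 regions had 5 and 0, 8 and 2, and 14 and 6 reads, and the intervals of the latter 2 included 0. The TGF-b library held 6 reads or fewer at every one of the 6 regions. All 6 ratios remained below 0 when centred, between -3.15 (the region with 15 and 0 reads) and -0.33. That does not hold at the floor of 3 reads. There the region with 5 and 0 reads had a log2 ratio of -0.34, above the all-region median of -0.65.

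In the other direction, a T set region in intron 1 at chr9:88215569-88215661 had 0 reads in TGF-b and 11 with siRNA, and was called only in siRNA. It was at least 4.08-fold higher on the deposited scale, a log2 ratio of 2.03 at the floor against an all-region median of 0.97. At the Nt5e TSS, the T set region chr9:88209588-88209653 had 11 reads in TGF-b and 5 with siRNA, a ratio of -0.54 (-2.14 to 0.78). The overlapping S set region chr9:88209580-88209861 had 9 reads with NC, 21 with TGF-b and 3 with siRNA. Density there was 6.08 with NC and 9.05 with TGF-b, giving a log2 ratio of 0.57 (-0.44 to 1.76), and 10.6 with TGF-b and 2.08 with siRNA in the other table, a ratio of -2.35 (-4.35 to -1.05). TGF-b had the most reads of the 3 S set libraries here, but the region was called only in TGF-b, which selects for that, and the interval of TGF-b over NC included 0 on the deposited scale. Without the rescaling that ratio was 1.14, past 2-fold. The S set ratio with siRNA was -2.14 centred and -2.46 without the rescaling. At the S set region 15342 bases from the TSS, reads were 4, 10 and 7.

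Crim1 encodes a membrane protein with cysteine-rich repeats that binds bone morphogenetic proteins, and it spans 173 kb in the annotation, against 3.01 to 40.2 kb for the other members. It had 36 listings in the T set tables and 13 in the S set tables, most of them far from a TSS and at low depth. With TGF-b over NC in the T set, 3 of its 18 regions were at least 2-fold higher and 7 lower, where 16.5% and 43.9% of all regions beyond 1 kb were, and 12 had a library with 3 reads or fewer. Centred, 4 were higher and 4 lower. The deepest, in intron 12 at chr17:78659285-78659532, had 19 reads with NC, 18 with TGF-b and 0 with siRNA, that is, a ratio of -0.02 (-0.94 to 0.89) and then a level at least 3.49-fold lower. Among the lower regions, chr17:78610015-78610098 in intron 4 had 14 and 2 reads, a ratio of -2.17 (-4.63 to -0.67). One region, in intron 13, was higher with an interval above 0, with 0 reads in NC and 6 in TGF-b, at least 2.06-fold.

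With siRNA over TGF-b, 8 of 18 Crim1 regions in the T set were at least 2-fold higher and 4 lower, and beyond 1 kb of a TSS 51.1% and 15.6% of all regions were. Centred, 4 were higher and 6 lower, so the balance turned with the scaling. Of the 8, 3 had an interval that included 0, and 13 of the 18 regions had a library with 3 reads or fewer. At chr17:78651979-78652049 in intron 9 there were 0 reads in TGF-b and 26 with siRNA, at least 9.21-fold higher on the deposited scale. At chr17:78604649-78604734 in intron 4 there were 1 and 18, a ratio of 3.70 (2.06 to 7.18). That ratio was 2.73 when centred and 2.70 with the single read raised to 3. In intron 12, chr17:78661816-78661895 had 8 and 23 reads, densities of 3.83 and 14.1 and a ratio of 1.88 (0.86 to 3.12) that was 0.91 when centred, under 2-fold. Against these, chr17:78629459-78629544 in intron 7 had 25 and 5 reads, a ratio of -1.65 (-3.20 to -0.52), although it was called only in the siRNA library. Higher and lower regions thus lay within the same gene. In the S set, Crim1 ratios with TGF-b lay between -1.27 and 0.81 with all 6 intervals including 0, and with siRNA 1 of 7 regions, at chr17:78534243-78534384, was at least 2-fold lower (10 and 2 reads, ratio -1.74, -4.21 to -0.16).

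**Figure D3:**
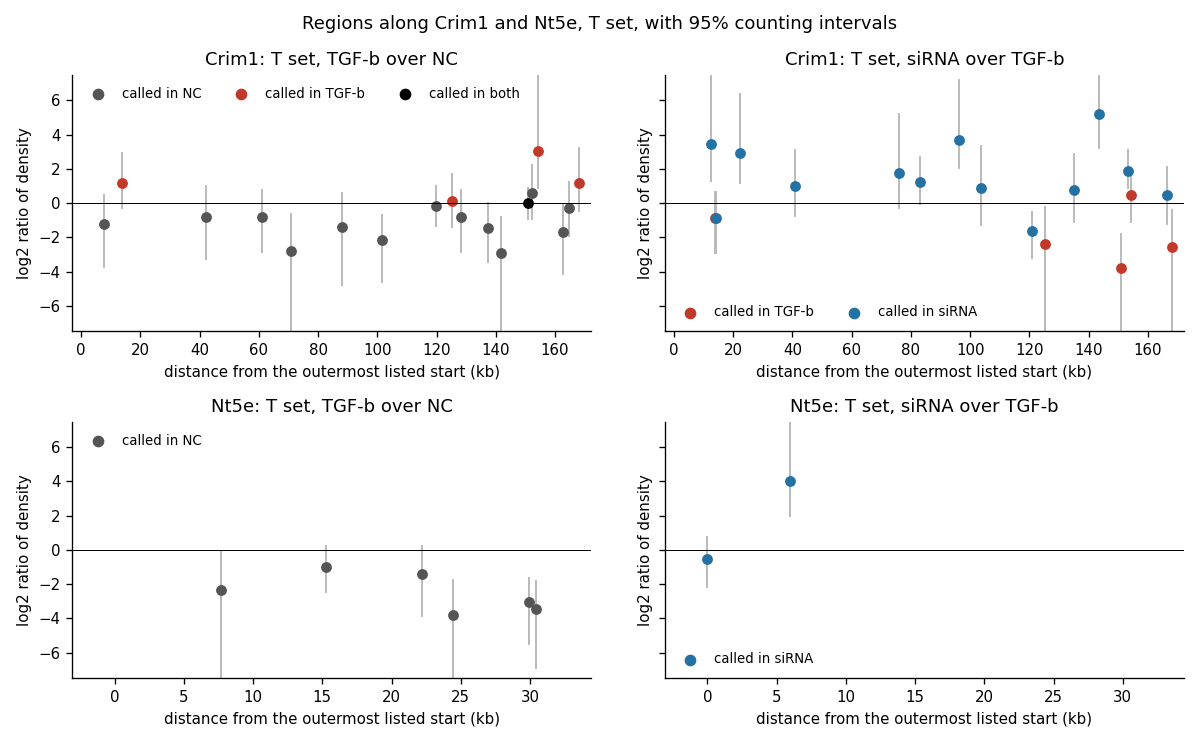
Log2 ratio of each T set region along Crim1 (top) and Nt5e (bottom) by its distance in kb from the outermost listed start, for TGF-b over NC at left and siRNA over TGF-b at right, coloured by the library in which the region was called. Grey lines are 95% counting intervals, and those that reach the edge of a panel go beyond it. Every Nt5e point at left lies below 0, whereas Crim1 has points on both sides.

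The peak call selects on the same reads as the ratio. Of the T set member regions for TGF-b over NC, 30 called in NC had a median log2 ratio of -1.01, 6 called in TGF-b a median of 0.73 and 4 called in both a median of -0.29. The corresponding medians of all regions were -1.27, 1.41 and 0.00. With siRNA over TGF-b, the 22 member regions called in siRNA had a median of 1.13, the 8 called in TGF-b -0.73 and the 2 called in both, at Ccn2 and Axl, -0.76, where the medians of all regions were 1.62, -1.42 and 0.00. Some regions were called in the library that had the lower density. These were 5 of 36 member regions (13.9%) with TGF-b over NC in the T set, where all regions gave 14.2%, and 7 of 30 (23.3%) with siRNA, where all regions gave 13.0%. The peak call and the density therefore do not always point the same way, as at Ccn3 with TGF-b and at Axl with siRNA.

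In the S set, member regions were few, and most counting intervals included 0. With TGF-b over NC, 0 of 11 were at least 2-fold higher and 2 lower, against 17.4% and 26.7% of all regions, and the median log2 ratio was -0.43 (-1.27 to 0.61) against -0.20. The lower regions were in Crim1 (7 and 4 reads) and in intron 1 of Nt5e, chr9:88219191-88219291, which had 5 reads in NC and 0 in TGF-b, at least 2.32-fold lower. Without the authors' rescaling, 4 regions were higher and 1 lower and the median was 0.15, so the direction turned. With siRNA over TGF-b, 0 of 13 were higher and 2 lower, against 15.1% and 27.8%, with a median of 0.15 (-0.35 to 0.41) against -0.21. These lower regions were the Nt5e start site and the Crim1 intron 1 region given above.

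Regions listed at the same coordinates in both tables of a set allow the 3 libraries to be read side by side, with 11 such T set regions and 5 such S set regions. In the T set, NC had the most reads at Ankrd1, Axl, F3 and both Ccn2 regions, and the siRNA library the fewest at Axl, F3, Ccn3 and Ccn2. At the 5 Crim1 regions among them, reads were 4, 9 and 3, then 6, 6 and 0, 19, 18 and 0, 0, 6 and 6, and 3, 7 and 0 in NC, TGF-b and siRNA. In the S set, TGF-b had the most reads at 4 of the 5 regions. All 5, and every shared T set region but that of Ankrd1, were called in TGF-b, which selects regions dense in that library. The Ankrd1 region was called only in NC and then only in siRNA, which selects for those libraries over TGF-b. Reads here are not scaled to library size, so an order of libraries also holds any difference in sequencing depth.

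**Figure D4:**
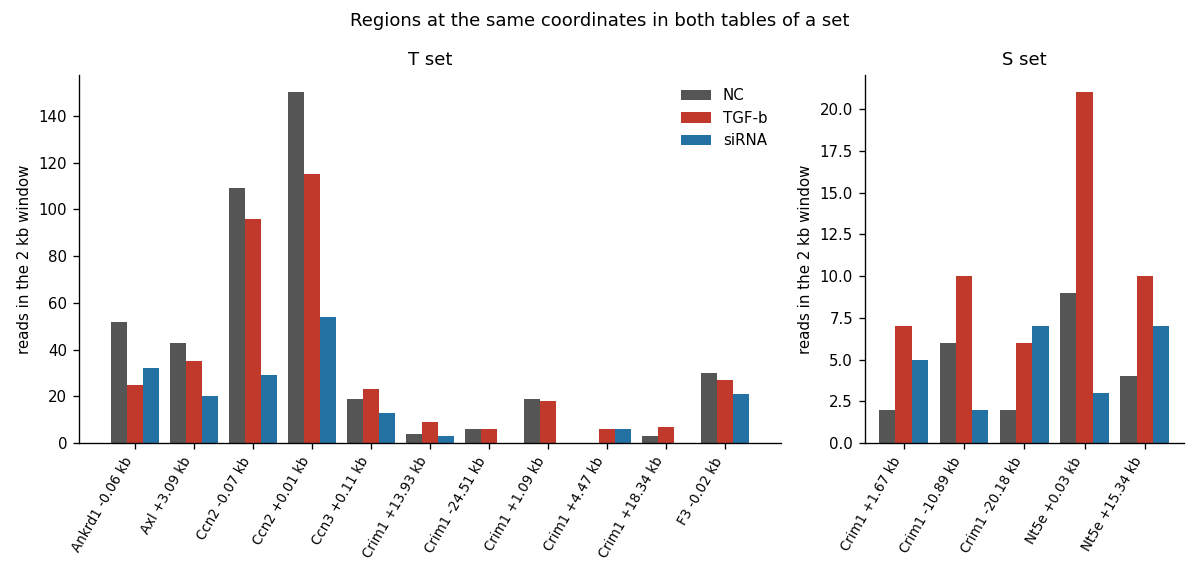
Reads in the 2 kb window (vertical axis) of the NC, TGF-b and siRNA libraries at the member regions listed at the same coordinates in both tables, by gene and distance to the TSS in kb, for the T set at left and the S set at right on its own scale. Bars are single libraries with no error bar. The highest bars are those of Ccn2, with 150 reads with NC, 115 with TGF-b and 54 with siRNA, while no S set bar passes 21.

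Few T set regions overlapped an S set region, both among members and over all regions. With TGF-b over NC, 3 of 40 T set member regions (7.5%, Wilson interval 2.58% to 19.9%) overlapped an S set region by at least 1 base, where 3.97% of all T set regions did. With siRNA over TGF-b, it was 2 of 32 (6.25%, 1.73% to 20.1%) against 4.68%. The overlapping regions were at the Ccn4 promoter, Crim1 intron 4 and Nt5e intron 1, and then at the Ankrd1 promoter and the Nt5e start site. At Crim1 intron 4, the T set had 5 reads in NC and 1 in TGF-b and the S set 7 and 4, with ratios of -1.37 (-4.80 to 0.58) and -1.27 (-3.08 to 0.27).

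A list of 16 other genes known from the YAP and TAZ pathway, Ccn6 among them, was described for comparison. With TGF-b over NC in the T set, 29 of their 222 regions (13.1%) were at least 2-fold higher and 96 (43.2%) lower, against 17.3% and 42.1% of all regions, with median log2 ratios of -0.76 and -0.65. Near a TSS, 7 of 16 (43.8%) were higher and 3 (18.8%) lower, against 21.4% and 20.9% of all such regions, with medians of 0.84 (-0.73 to 2.14) and 0.09. The members had 1 of 11 higher there, and that difference was not tested. Higher at their deepest region were Nuak2, a kinase of the AMPK family (3 and 31 reads, ratio 3.11, 1.85 to 5.10), Ptpn14, a phosphatase that restrains YAP (18 and 60 reads, 1.69, 0.99 to 2.49) and Gadd45a, a stress response gene (21 and 48 reads, 1.16, 0.47 to 1.93). Lower were Dock5, Rbms3 and Fjx1, with ratios of -2.13, -1.46 and -1.19, and Igfbp3, with 25 reads in NC and 0 in TGF-b. Rbms3 supplied 98 of the 222 regions. Centred, 49 were higher and 70 lower, with Rbms3 at -0.81 and Fjx1 at -0.54, under 2-fold. With siRNA over TGF-b, 93 of 207 regions (44.9%) were higher and 37 (17.9%) lower, against 49.7% and 16.2% of all regions, with medians of 0.77 and 0.97. The deepest regions of Myof, Tgfb2 and Rbms3 were higher, with ratios of 1.42, 2.32 and 1.24, and those of Dock5 and Ccdc80 lower, at -2.12 and -2.21. Centred, 49 were higher and 72 lower, so the balance turned, with Myof at 0.45 and Rbms3 at 0.27, under 2-fold. Centring also brought the deepest regions of Amotl2 (84 and 30 reads, -0.97 to -1.94 on centring), Ptpn14 (-1.47), Arhgef17 (-1.35), Igfbp3 (-1.29), Nuak2 (-1.11) and Gadd45a (-1.02) past 2-fold lower. On the deposited scale all of these but Amotl2 had intervals that included 0. All regions near a TSS had a deposited median of 0.03 in this comparison, against 0.97 for all regions, so those near a TSS tend to lie below 0 once centred. In the S set, 5 of 39 regions (12.8%) were higher and 13 (33.3%) lower with TGF-b, against 17.4% and 26.7% of all regions. With siRNA, 10 of 44 (22.7%) were higher and 8 (18.2%) lower, against 15.1% and 27.8%. Asap1 was lower with TGF-b (15 and 6 reads, -1.77, -3.22 to -0.58), and Myof was higher with siRNA (4 and 11 reads, 1.38, 0.01 to 3.15).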

How the data were processed

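Processed tables of 6 CUT&Tag libraries, 1 per treatment and set, were used. The methods of the study name Bowtie2, the GRCm39 genome and, for peaks, a caller written Masc2, without versions. The submitters' processing notes list mm10 and BWA 0.7.12 instead. The listed starts of the 10 members match GRCm38 at none, so coordinates are given as GRCm39. What the authors deposited as read density is a signal: 0.5 times the reads plus 1, rescaled by them along a line over the mean log2 level. Undoing the line gave whole reads (within 0.1) in 99.98% to 99.99% of regions, and every member region. The deposited tables also hold the authors' own log2 ratios and p-values, which were not used.

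Ratios are the log2 of the later over the earlier library, within a table. Each interval is a Wilson 95% interval on the later library's portion of the reads, moved by the line. The threshold was 2-fold and the floor 3 reads. Where a library held 0 reads, a fold given as at least a value sets that library to 3 reads on the deposited scale. It is not a confidence bound and was not centred. Centring used the median of all regions, which in the T set differed from that of regions near a TSS. Alternatives were centring on the median of all regions, no line, at least 10 reads, merged overlapping windows, 4-fold, an overlap of 50%, reads of 3 or fewer set to 3, and no Crim1, the last 2 chosen after seeing these results. All members were named, with the deepest region per gene and table. The regions nearest the TSS and those past 2-fold with intervals excluding 0 could also be named. The other pathway genes were named only where the deepest region passed 2-fold with an interval excluding 0. Those that centring alone brought past 2-fold with siRNA in the T set were named as well. Members, lists and motifs were chosen with earlier results of these data known. Python 3.11.15, numpy 2.4.6, pandas 2.3.3 and scipy 1.17.1 were used, and the recovery of reads was tested on simulated data. Each treatment is represented by 1 library in the tables used here, and library totals were not used.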

Additional observations from a re-analysis of the deposited data

Results flagged for a closer look

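A region in intron 1 of Nt5e, 15 kb from the start site, overlapped between the sets and had TGF-b over NC ratios of opposite sign. The T set region was called only in NC and the S set region only in TGF-b, so each was listed through the library in which it was denser. In the T set (chr9:88224862-88224956, GRCm39) it had 14 reads in NC and 6 in TGF-b, for a log2 ratio of -0.98 (-2.44 to 0.22), or -0.33 when centred on the median of all regions. Without the authors' rescaling that ratio was -1.10. In the S set (chr9:88224936-88225120) the region had 4 reads in NC and 10 in TGF-b, for a log2 ratio of 0.55 (-0.86 to 2.32). That was 0.75 when centred and 1.14 without the rescaling. With 1 library per treatment, no test could compare the sets, so this difference was not tested, and both counting intervals include 0.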

How the results depend on the processing

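Values below are counts of member regions at least 2-fold higher or lower, unless a median is named, and the cause of each shift was not tested beyond what the setting itself does. After centring on the all-region median, the T set with TGF-b over NC had 9 lower regions and a median of -0.07, and with siRNA over TGF-b 7 higher and 13 lower, with a median of -0.36, while the S set had 1 higher with TGF-b and 1 higher with siRNA. Without the authors' line, the S set with TGF-b had 4 higher and 1 lower and the T set with siRNA had 10 lower. With at least 10 reads in the pair, lower regions with TGF-b numbered 9 (T set) and 1 (S set). With 1 region per run of overlapping windows, 2 were higher with TGF-b in the T set. At 4-fold, there were 1 higher and 8 lower (T set, TGF-b), 1 lower (S set, TGF-b), 7 higher and 3 lower (T set, siRNA) and 1 lower (S set, siRNA). Without Crim1, there were 1 higher and 8 lower, 1 lower, 4 higher and 2 lower, and 1 lower in the same order. Raising reads of 3 or fewer to 3 left 8 lower with TGF-b in the T set. An overlap of 50% left 1 of the 3 overlapping regions. The remaining alternatives moved no count by over 1.5 times. No paired analysis was possible because each treatment has 1 library per set. Depth limits most single regions, and least the deepest T set regions of Ccn1, Ccn2, Ankrd1, Axl and F3.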
